A study of Mus musculus with 6 samples.

Results

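The interferon response genes around Isg15 and Usp18 were read as 9 member genes of the 8511 genes that the 3 array types name with 1 symbol. The members are Isg15, Usp18, Irf1, Irf7, Irf8, Irf9, Igtp, Gbp2 and Ifit1. They were chosen on their measured levels and ratios in these same arrays, so the values below are a description of the members and carry no test. The members were read by 20 probe sets, 10 in each experiment, and 0 probe sets that name several genes hold a member. Of the 9 genes, 8 lay above the lowest usable level in both experiments, and Ifit1 lay below it on every array.

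The series compared CD4+CD8+ double-positive thymocytes, which are immature alpha-beta lineage T cells of the thymus, between mice that carry a transgene for the HMG-box transcription factor Sox13 and their littermates without it. The cells express Sox13 ectopically, and the labels put the question as whether Sox13 can impose the program of another T cell lineage. Both groups were C57BL/6 females 6 weeks old, and the double-positive cells were sorted from thymocytes pooled over at least a pair of mice. Experiment 1 used the Mu11K A and Mu11K B arrays and experiment 2 the U74A version 2 array, with 1 Sox13 transgenic and 1 wild-type array of each type, 6 arrays in all. The Sox13 transgenic group was the double-positive thymocytes of transgene-positive mice, and the wild-type group was the same sorted cells of littermate controls. For the transgene, neither the promoter nor the number of lines is given in the sources used here.

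Interferons are secreted cytokines that act through paired surface receptors and the Janus kinases. Type I interferon signaling brings a complex that contains IRF9 to the interferon-stimulated response element of target genes, while interferon gamma acts through the gamma-activated site. Isg15 encodes a ubiquitin-like protein that is joined to other proteins, and Usp18 encodes the protease that removes it and that also dampens signaling at the type I receptor. Several interferon regulatory factors are both targets of the pathway and transcription factors within it.

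The upstream sequences of the members that hold either element are shown because these elements are the known DNA targets of the pathway. RefSeq windows of 250 bases before to 50 bases after the start, in build GRCm38.p6, were found for 8 of the 9 members. Usp18 is named only. Each line runs 5′ to 3′ on the strand of the gene, and capitals mark every match to GAAA, any 2 bases, GAAA (the core of the interferon-stimulated response element) or to TTCNNNGAA (the gamma-activated site), searched on both strands.
Isg15, chr4:156200845-156200926, strand -: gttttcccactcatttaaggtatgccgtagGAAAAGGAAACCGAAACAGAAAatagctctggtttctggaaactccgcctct
Irf1, chr11:53769894-53769962, strand +: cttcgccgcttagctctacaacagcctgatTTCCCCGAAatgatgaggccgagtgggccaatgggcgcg
Irf8, chr8:120736157-120736243, strand +: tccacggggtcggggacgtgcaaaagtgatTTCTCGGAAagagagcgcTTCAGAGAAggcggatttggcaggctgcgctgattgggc
Igtp, chr11:58199481-58199555, strand +: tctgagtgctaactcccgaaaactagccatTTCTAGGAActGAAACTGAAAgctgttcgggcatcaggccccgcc
Gbp2, chr3:142620574-142620643, strand +: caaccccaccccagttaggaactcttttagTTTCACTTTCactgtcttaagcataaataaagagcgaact
Ifit1, chr19:34640755-34640843, strand +: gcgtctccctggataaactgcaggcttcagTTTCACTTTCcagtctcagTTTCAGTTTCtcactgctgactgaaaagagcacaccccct
The response element core was present in 4 of 8 members, namely Isg15, Igtp, Gbp2 and Ifit1, against 3.99% of the 27025 genes with a window. In Isg15 there were 3 matches that overlap one another, and in Ifit1 there were 2 apart. The gamma-activated site was present in 3 of 8 members, namely Irf1, Irf8 and Igtp, against 9.55% of genes, and Irf8 held 2. Igtp alone among the 8 held both. The windows of Irf7 and Irf9 held neither string of letters. Among 61 other interferon genes with a window, 41.0% held the core and 31.1% the gamma-activated site.

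The labels were checked on Sox13 itself. In experiment 1 its level was 5951 in the Sox13 transgenic sample and below the floor of 100 in the wild type, at least 59.5-fold higher. Experiment 2 gave 3832 in the Sox13 transgenic sample and 599.6 in the wild type, 6.39-fold higher. Levels are scaled intensities, on which the trimmed mean of every array is 500. On an array, 46.9% to 57.4% of the probe sets exceeded the floor. The markers of double-positive thymocytes that the arrays hold were above the floor in both genotypes, 8 of 8 in experiment 1 and 9 of 9 in experiment 2. Their summed level was 56089 in the Sox13 transgenic and 64014 in the wild-type sample of experiment 1, and 91894 and 96603 in the Sox13 transgenic and wild-type samples of experiment 2. In Sox13 transgenic cells, 2 were higher and 6 lower in experiment 1, and 5 higher and 4 lower in experiment 2. Rag2 had 459.8 in Sox13 transgenic and 1871 in wild-type cells in experiment 1, and 2119 and 2008 in experiment 2. Ptcra had 952.9 in Sox13 transgenic and 312.3 in wild-type cells in experiment 1, and 2247 and 1503 in experiment 2.

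With 1 array per genotype and array type, the error of a ratio was gauged from genes that several probe sets read. The median difference between a pair of probe sets of one gene was 0.31 on the log2 scale in experiment 1 (566 genes) and 0.23 in experiment 2 (756 genes), and its 90th percentile was 1.10 and 0.66 in experiments 1 and 2. Between the experiments, the log2 ratio of a gene differed by a median of 0.47, with a 90th percentile of 1.31 over 3237 genes. The first of these measures covers disagreement within a pair of arrays, and the spread between pools of mice of one genotype was not measured within an experiment. The ratios of experiment 1 were more widely spread, with an SD over genes of 0.76 against 0.33 in experiment 2. In experiment 1 the deposited values of both wild-type arrays were 100% whole numbers, against 10.3% and 10.6% of those of the Sox13 transgenic arrays. That difference in the files runs with genotype, and its part in the results of experiment 1 was not tested.

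Isg15 and Usp18, the ubiquitin-like modifier and its protease, were both higher in the Sox13 transgenic sample of each experiment. Isg15 had a level of 830.8 in Sox13 transgenic cells and 202.7 in wild-type cells in experiment 1, and 668.9 in Sox13 transgenic and 291.7 in wild-type cells in experiment 2. The Sox13 transgenic sample was the higher one of each pair, and levels are compared only within a pair because array types differ. The differences were 4.10-fold and 2.29-fold, with a mean log2 ratio of 1.62 ± 0.59 (SD, n = 2 experiments). In bulk samples, a change in the number of cells of a type and a change in RNA per cell cannot be told apart.

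Usp18 had a level of 444.1 in Sox13 transgenic cells and 154.5 in wild-type cells in experiment 1, and 453.4 in Sox13 transgenic and 141.6 in wild-type cells in experiment 2. Again the Sox13 transgenic sample was the higher one of each pair, and the experiments gave nearly the same size, 2.87-fold and 3.20-fold. The mean log2 ratio was 1.60 ± 0.11 (SD, n = 2 experiments). The probe sets for Usp18 were designed on different sequence records in the 2 experiments, as were those for Gbp2, while the other 7 members share a record between them. In the ranking of genes from the highest log2 ratio, Isg15 stood at 24 of 3927 in experiment 1 and 23 of 5377 in experiment 2, and Usp18 at 62 and 9. Both genes were chosen on these ratios, so the ranks are a description.

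**Figure D1:**
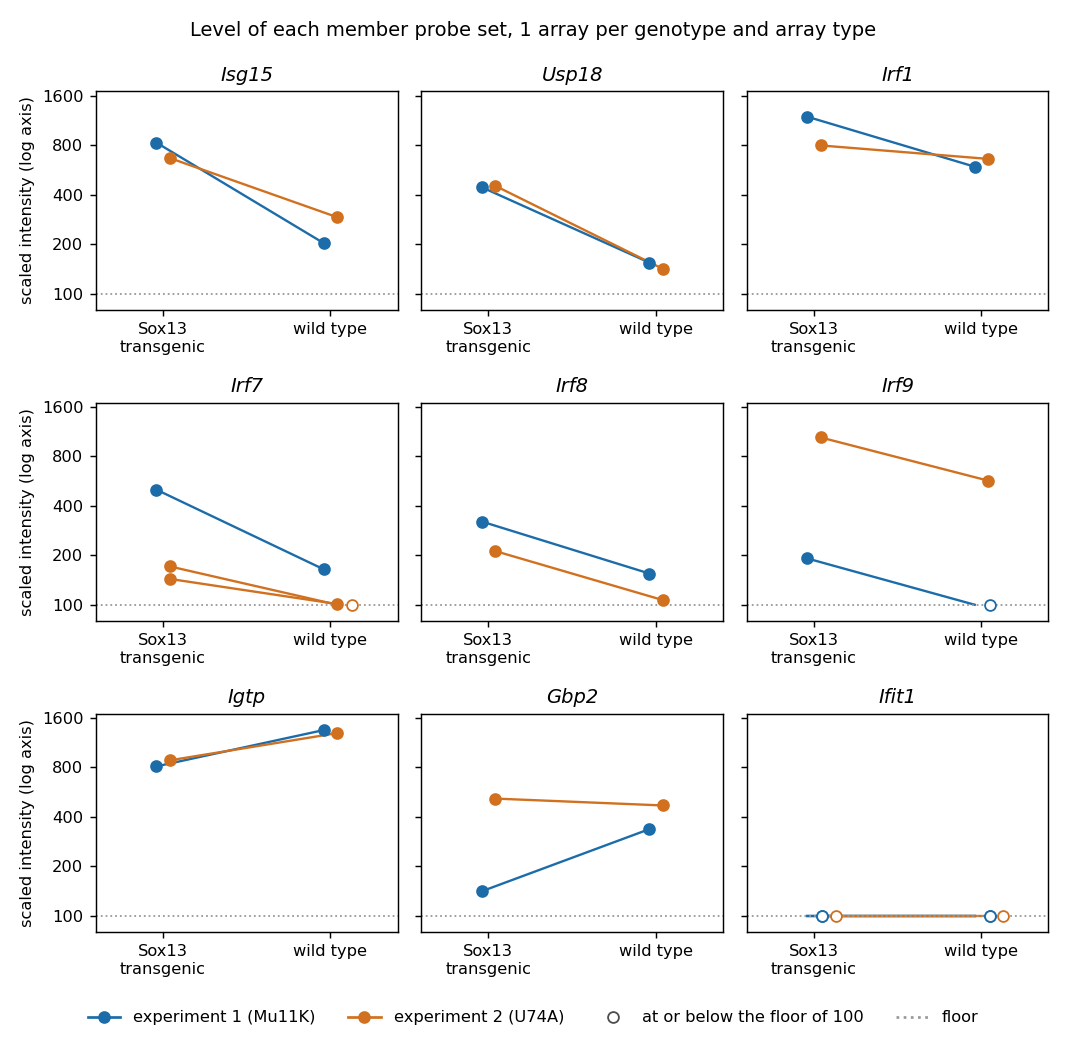
Scaled intensity (log axis) of every member probe set in the Sox13 transgenic and the wild-type sample, with a line joining the 2 arrays of one array type and open points for values at or below the floor of 100. Isg15, Usp18 and the 4 interferon regulatory factors slope down toward the wild type in both experiments, Igtp slopes up, Gbp2 slopes up in experiment 1 and slightly down in experiment 2, and Ifit1 lies at the floor throughout.

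The 4 interferon regulatory factors were higher in Sox13 transgenic cells in both experiments, by differing amounts. Irf7, the factor that amplifies production of type I interferon, had a level of 502.2 in Sox13 transgenic and 164.2 in wild-type cells in experiment 1, a 3.06-fold difference. In experiment 2 it was dimmer and read by 2 probe sets. One gave 171.2 in Sox13 transgenic cells and a value below the floor in wild-type cells, at least 1.71-fold higher, and the other gave 143.7 in Sox13 transgenic and 101.0 in wild-type cells, 1.42-fold higher. Both probe sets thus pointed the same way at levels near the floor. The mean log2 ratio of Irf7 was 1.13 ± 0.69 (SD, n = 2 experiments), in part from that lower bound.

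Irf9 encodes a DNA-binding part of the complex that type I interferon signaling forms. It had a level of 191.4 in Sox13 transgenic cells and lay below the floor in wild-type cells in experiment 1, at least 1.91-fold higher. The U74A array gave 1043 in Sox13 transgenic and 569.2 in wild-type cells, 1.83-fold higher, with both samples well above the floor. The mean log2 ratio of 0.91 is therefore a lower bound.

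Irf8 is a factor of the B cell, macrophage and dendritic cell lineages that interferon gamma also induces. Its level was 321.0 in Sox13 transgenic and 154.9 in wild-type cells in experiment 1, a 2.07-fold difference. Experiment 2 gave 212.3 in Sox13 transgenic and 106.8 in wild-type cells, 1.99-fold higher. The 2 ratios were close to each other, with a mean log2 ratio of 1.02 ± 0.04 (SD, n = 2 experiments), but 1 of the 4 levels lay just above the floor. With the floor raised to 200, the mean log2 ratio was 0.38.

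Since Irf8 marks other blood lineages, markers of those cells were read in the same samples. Of the B cell markers, 3 of 9 lay above the floor in the Sox13 transgenic and 4 of 9 in the wild-type sample of experiment 1, with summed levels of 14403 in the Sox13 transgenic and 11082 in the wild type. In experiment 2 there were 5 of 10 above the floor in each genotype, with sums of 11771 in the Sox13 transgenic and 11508 in the wild type. Most of each sum was Ighm, the mu heavy chain, at 13180.4 in Sox13 transgenic and 9859 in wild-type cells in experiment 1 and at 10559.7 in Sox13 transgenic and 10339.9 in wild-type cells in experiment 2. Cd22, Ebf1 and Fcer2a were at the floor in every sample, and Cd79a and Pax5 in both samples of experiment 1.

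Myeloid markers above the floor numbered 5 of 10 in the Sox13 transgenic and 4 of 10 in the wild-type sample of experiment 1, with sums of 2750.1 in the Sox13 transgenic and 3171 in the wild type. In experiment 2 they numbered 6 of 11 in the Sox13 transgenic and 4 of 11 in the wild type, with sums of 1332 in the Sox13 transgenic and 1008 in the wild type. The macrophage gene Adgre1, the Fc receptor gene Fcgr3 and the neutrophil gene S100a9 were at the floor in every sample. Among myeloid markers above the floor in either genotype, 1 was higher and 4 lower in experiment 1, and 3 higher and 3 lower in experiment 2. Lyz2 had 1627 in Sox13 transgenic and 2024 in wild-type cells in experiment 1. In experiment 2 it had 254.6 in Sox13 transgenic cells and was below the floor in wild-type cells. Dendritic cell markers summed to 240.7 in the Sox13 transgenic and 124.5 in the wild-type sample of experiment 1, from 1 of 3 markers in each. In experiment 2 they summed to 1071 from 5 of 6 markers in the Sox13 transgenic and 1182 from 4 of 6 in the wild type. The myeloid and the dendritic sum were each higher in Sox13 transgenic cells in 1 experiment and lower in the other. Irf8 was higher in both, and so was the B cell sum, most of which was Ighm. The B cell markers themselves were split. Of those above the floor in either genotype, 2 were higher and 2 lower in experiment 1, and 3 higher and 3 lower in experiment 2. The part of B cells, myeloid cells and dendritic cells in the Irf8 result was not tested. The erythroid sum was higher in the Sox13 transgenic sample of each experiment. It was 3037 in the Sox13 transgenic and 677.6 in the wild type in experiment 1. In experiment 2 it was 1934 in the Sox13 transgenic and 242.4 in the wild type. Most of each Sox13 transgenic sum was Hba-a1, a hemoglobin chain gene, at 1862 in experiment 1 and 1642 in experiment 2. Its wild-type levels were 305.5 and 242.4 in experiments 1 and 2. Hbb-b2, another such gene, was also higher in both experiments. Klf1 had 273.1 in Sox13 transgenic and 262.5 in wild-type cells in experiment 1 and was at the floor in experiment 2. Alas2 and Epor were at the floor in every sample. The part of the erythroid sum in the members' ratios was not tested. Natural killer cell markers rested on Gzma alone, 1 of 3 and 1 of 6 markers in experiments 1 and 2, with Gzmb at the floor in every sample. Gzma had 8604 in Sox13 transgenic and 1535 in wild-type cells in experiment 1, and 1262 in Sox13 transgenic and 605.2 in wild-type cells in experiment 2. Markers of mature single-positive thymocytes summed to 1679 in the Sox13 transgenic and 745.8 in the wild type in experiment 1, from 3 and 2 of 5 markers, and to 720.2 in the Sox13 transgenic and 557.1 in the wild type in experiment 2, from 2 and 1 of 5. The part of these cells in the members' ratios was not tested either.

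Irf1, the early target of interferon gamma whose upstream window holds a gamma-activated site, had a level of 1193 in Sox13 transgenic and 591.9 in wild-type cells in experiment 1, a 2.02-fold difference. The experiment 2 levels were 797.7 in Sox13 transgenic and 660.5 in wild-type cells, 1.21-fold higher. All 4 levels were well above the floor. The log2 ratio in experiment 2 was 0.27, beside a median difference of 0.23 between probe sets of one gene there. Its mean log2 ratio was 0.64 ± 0.52 (SD, n = 2 experiments).

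The 2 GTPase genes, which interferon gamma induces in many cell types, did not follow Isg15 and Usp18. Igtp, an immunity-related GTPase also called Irgm3, had a level of 812.1 in Sox13 transgenic and 1352 in wild-type cells in experiment 1, 1.66-fold lower. In experiment 2 the level was 884.0 in Sox13 transgenic and 1295 in wild-type cells, 1.47-fold lower. Igtp was lower in both Sox13 transgenic samples, with a mean log2 ratio of -0.64 ± 0.13 (SD, n = 2 experiments).

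Gbp2, a guanylate-binding protein, had a level of 141.1 in Sox13 transgenic and 337.1 in wild-type cells in experiment 1, 2.39-fold lower. In experiment 2 it had 517.6 in Sox13 transgenic and 470.0 in wild-type cells, 1.10-fold higher. The experiments thus disagreed in direction, by -1.40 on the log2 scale as experiment 1 minus experiment 2, and no common direction can be given for this gene. Ifit1, a type I interferon target whose product binds foreign RNA, was at the floor on all arrays with each of its 3 probe sets, so no ratio was formed. Its window nonetheless holds 2 matches to the response element core.

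Counted over the 8 measured members, 6 were higher in Sox13 transgenic cells in both experiments and 1 was lower in both, while 23.9% of the 3237 genes measured in both were higher in both and 30.4% were lower in both. In experiment 1, 5 members were 2-fold or more higher and 1 was 2-fold or more lower, where 5.25% of 3927 genes were that much higher and 11.7% that much lower. In experiment 2, 2 members were 2-fold or more higher and 0 lower, where 0.855% of 5377 genes were that much higher and 0.446% lower. These shares are given as background only, because the same ratios chose the members. The median log2 ratio of the measured members was 1.03 in experiment 1 and 0.76 in experiment 2, while the 3237 genes had medians of -0.05 and -0.02. The members nearest to the 2-fold line were Irf1 at 1.01 inside it in experiment 1 and Irf8 at 0.99 outside it in experiment 2. Irf9, at 0.94 or more in experiment 1, cannot be placed on either side, since its wild-type level was at the floor. With a floor of 50, and likewise with median scaling, quantile or loess normalization, 6 members were 2-fold or more higher in experiment 1 and 3 in experiment 2.

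**Figure D2:**
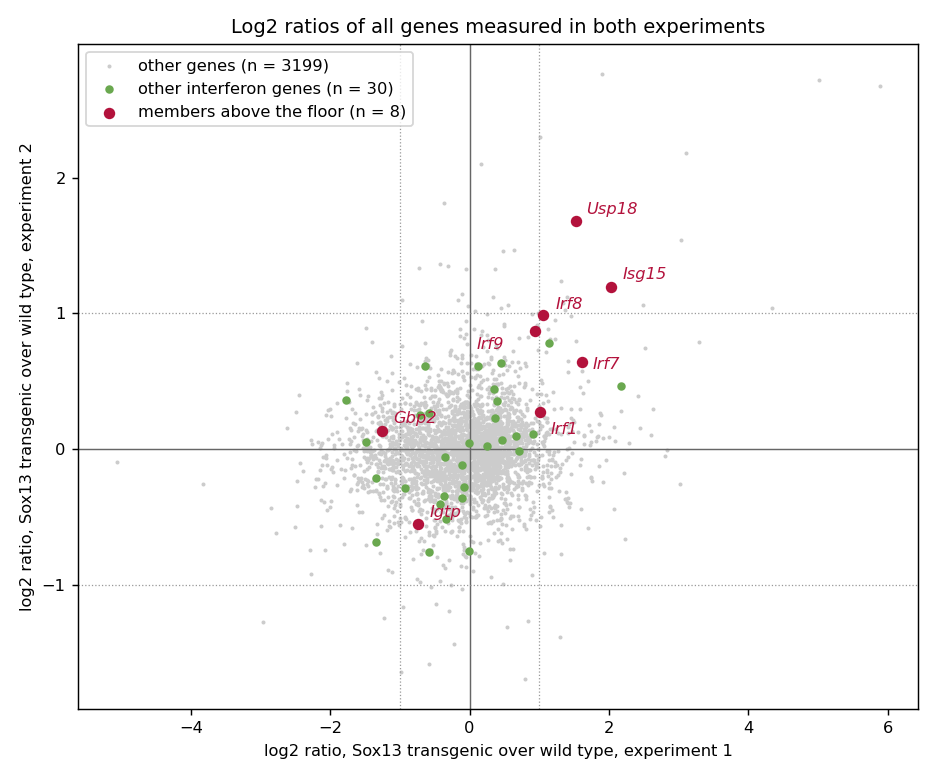
Log2 ratio of Sox13 transgenic over wild type in experiment 1 (horizontal axis) and experiment 2 (vertical axis), 1 point per gene measured in both, with dotted lines at a 2-fold difference. Isg15 and Usp18 lie past 2-fold on both axes, the interferon regulatory factors lie in the same quadrant, Igtp lies in the lower left and Gbp2 in the upper left, while the 30 other interferon genes spread around the origin.

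The scaling moved the median log2 ratio of all genes in experiment 1, which was -0.07 as reported, 0.27 when arrays were scaled to their median, 0.06 after quantile normalization and 0.04 after loess normalization. Taken relative to that median and averaged over the experiments, the log2 ratio over these 4 scalings was 1.66 to 1.76 for Isg15, 1.65 to 1.76 for Usp18, 1.16 to 1.27 for Irf7, 1.07 to 1.20 for Irf8, 0.87 to 1.03 for Irf9 and 0.65 to 0.69 for Irf1. Igtp ran from -0.66 to -0.60 and Gbp2 from -0.51 to -0.40. None of the 8 measured members changed the sign of its mean under any of the 4.

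**Figure D3:**
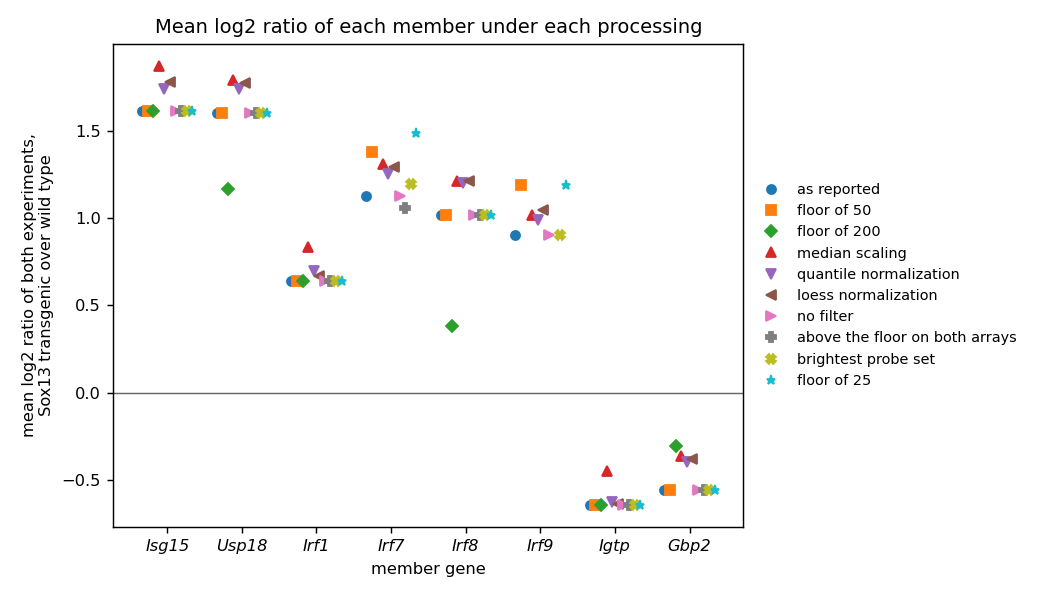
Mean log2 ratio of both experiments, Sox13 transgenic over wild type, for each measured member (horizontal axis), with 1 symbol per processing alternative. Isg15 runs from 1.62 to 1.87 and stays near the top, whereas Usp18 lies at 1.17 and Irf8 at 0.38 with a floor of 200, which exceeds their wild-type levels.

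The rest of the pathway was read from lists of 114 other interferon genes, of which 76 were on the arrays and 30 were above the floor in both experiments. These genes entered limma over both experiments, fitted with all 3237 genes. Its p-values rest only on disagreement between these 2 pairs of pooled samples. The error of each gene was drawn toward a value shared by all genes. The limma SE was thus 0.34 even for Ifnab and Ly6e, whose 2 ratios nearly matched. Over all genes, limma called 5 higher in Sox13 transgenic cells (0.154%) and 0 lower (0%) after Benjamini-Hochberg adjustment, with 81 higher and 127 lower at an unadjusted p under 0.05. Of the 30 other interferon genes, limma called 0, and 3 had an unadjusted p under 0.05. Their smallest adjusted p was 0.643. In direction alone, 11 were higher in both experiments, 12 lower in both and 7 opposite. The 30 genes had median log2 ratios of -0.09 in experiment 1 and 0.05 in experiment 2. Over all 3237 genes, 23.9% were higher in both experiments and 30.4% lower in both. The balance among the 30 genes depended on the processing. There were 13 higher and 8 lower with median scaling, 11 and 7 with quantile normalization and 11 and 8 with loess normalization. A floor of 200 gave 9 and 6, and a filter that both arrays exceed the floor gave 11 and 6. The shares of all genes higher or lower in both were not counted for these alternatives. In experiment 1 the share of all genes that were higher was 45.6% as reported and 64.9% with median scaling.

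Among the ligands, Ifnb1 and Ifng were at the floor in every sample that measured them. The 3 interferon alpha family genes above the floor in both experiments, Ifna5, Ifna9 and Ifnab, had log2 ratios between -0.75 and -0.01. The Sox13 transgenic level was at the floor for Ifna5 and Ifnab in experiment 1 and for Ifna9 in experiment 2. Those ratios are bounds. Since these genes are near-identical copies, their probe sets cannot be assigned with certainty. Of the receptor chains, Ifnar1 of the type I receptor had log2 ratios of -0.42 and -0.40 in experiments 1 and 2, and its partner Ifnar2 had 0.45 and 0.64. Ifngr1, the ligand-binding chain for interferon gamma, had 0.36 and 0.44, and Il10rb, a chain shared with other cytokines, had 0.39 and 0.35. Each receptor chain kept one sign in both experiments, and none passed the test. Ifngr2 was measured in experiment 2 only, at -0.57.

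Of the kinases, Jak2, which serves the interferon gamma receptor, had the largest negative ratios of its list. Its mean level over 3 probe sets was 121.0 in Sox13 transgenic and 305.0 in wild-type cells in experiment 1, and 331.0 in Sox13 transgenic and 530.8 in wild-type cells in experiment 2. In experiment 1 the Sox13 transgenic level was at the floor for 2 of the 3, which makes that ratio a bound. Averaged over the experiments, the log2 ratio of Jak2 came to -1.01 ± 0.35 (limma SE, n = 2), with a limma adjusted p of 0.657. Jak1, used by both kinds of receptor, had log2 ratios of -0.92 and -0.28, and Tyk2, of the type I receptor, had 0.44 in experiment 2 alone. The inhibitors gave mixed values. Socs1, which blocks Janus kinases, had 0.71 in experiment 1 and -0.01 in experiment 2, the phosphatase gene Ptpn2 had -0.10 and -0.36, and Pias1, a SUMO ligase gene, had -0.42 in experiment 2 alone.

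The other interferon regulatory factors had ratios of both signs. Irf3, the sensor-activated factor that starts interferon transcription, had log2 ratios of 0.92 and 0.12 and a limma adjusted p of 0.863 (n = 2). Irf2, an antagonist of Irf1, had -0.13 in experiment 1 alone, while Irf4 and Irf5 had 0.58 and 0.07 in experiment 2 alone, that of Irf4 against a wild-type level at the floor and so a lower bound. Of the genes that attach ISG15 to its targets, the activating enzyme gene Uba7 had -0.11 and -0.12. The conjugating enzyme gene Ube2l6 had -0.74 in experiment 1 alone, with the Sox13 transgenic level at the floor, and the ligase gene Trim25 had -0.72 and 0.25. Uba7 was thus lower in both experiments and Trim25 changed sign, while Ube2l6 was at the floor in experiment 2 and had no ratio there. Isg15 and Usp18 were chosen on their ratios, so any contrast between them and these 3 genes is a description and was not tested.

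**Figure D4:**
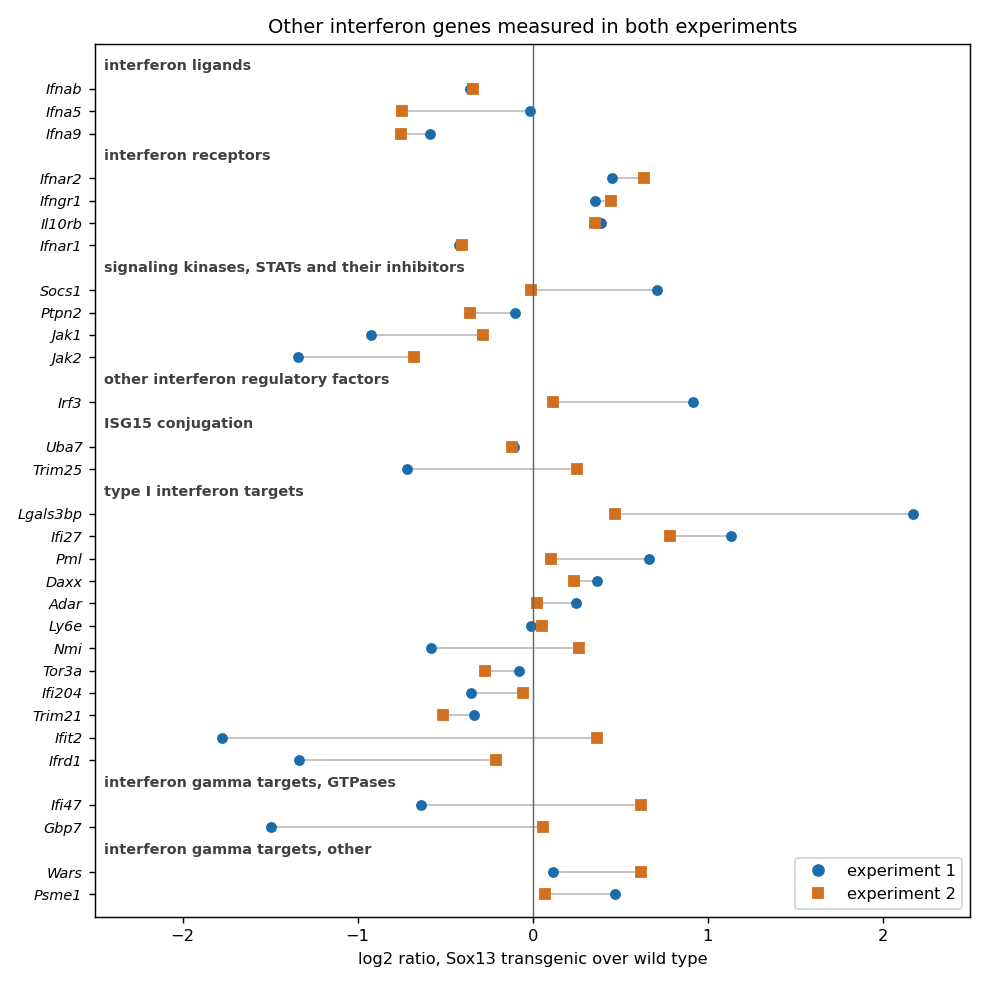
Log2 ratio of Sox13 transgenic over wild type (horizontal axis) for the 30 other interferon genes measured in both experiments, grouped by role, with circles for experiment 1, squares for experiment 2 and a line joining them. Lgals3bp and Ifi27 lie furthest to the right, Jak2 lies to the left in both experiments, and 7 genes have their points on opposite sides of 0.

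Of the 12 tested genes that were listed as type I interferon targets, 5 were higher in both experiments and 4 lower in both. Over all genes the shares were 23.9% and 30.4%. Ifi27, a small mitochondrial membrane protein gene, had a level of 9035 in Sox13 transgenic and 4115 in wild-type cells in experiment 1, and 4435 in Sox13 transgenic and 2575 in wild-type cells in experiment 2. Lgals3bp, which encodes a secreted galectin-binding glycoprotein, had 2337 in Sox13 transgenic and 519.2 in wild-type cells in experiment 1, and 602.7 in Sox13 transgenic and 436.0 in wild-type cells in experiment 2. Neither passed the test. Mean log2 ratios were 0.96 ± 0.34 for Ifi27 and 1.32 ± 0.41 for Lgals3bp (limma SE, n = 2 each), with limma adjusted p-values of 0.694 and 0.643, and Lgals3bp passed when arrays were scaled to their median (limma adjusted p = 0.0229, in a range of 0.0229 to 0.860 over all alternatives). Daxx, Pml and Adar were the other 3 with positive ratios in both, at means of 0.30, 0.38 and 0.14, and the probe sets of Adar disagreed in sign in experiment 2. Trim21, Ifrd1, Tor3a and Ifi204 had negative ratios in both, with means between -0.77 and -0.18. The Sox13 transgenic level was at the floor for Ifrd1 and Ifi204 in experiment 1 and for Tor3a in experiment 2, so those ratios are bounds.

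Ifit2, Trim25, Nmi, Ly6e, Gbp7 and Ifi47 had a negative ratio in experiment 1 and a positive one in experiment 2. Of all 3237 genes measured in both experiments, only 54.3% had the same sign in both. The share of all genes that were negative in experiment 1 and positive in experiment 2 was not counted. That order of signs therefore cannot be read as a trait of the interferon genes. Ifit2, a type I target of the same family as Ifit1, had the most negative ratio of the 30 in experiment 1, at -1.78 or below with the Sox13 transgenic level at the floor, and 0.37 in experiment 2. Nmi had -0.58 and 0.26, and Ly6e had -0.01 and 0.05. Of the interferon gamma targets, the GTPase gene Gbp7 had log2 ratios of -1.49 and 0.06, and the GTPase gene Ifi47 had -0.64 and 0.62. Of the other gamma targets, Psme1, a proteasome activator subunit, had 0.47 and 0.07, and Wars, a tryptophanyl-tRNA synthetase gene, had 0.12 and 0.62 with disagreeing probe sets. None of these 4 passed the test. At the floor in every sample were 19 of the 76 genes, among them the type I targets Mx1, Ifit3 and Cmpk2 and the chemokine genes Cxcl9 and Cxcl10, which thus resembled Ifit1 in giving no ratio.

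The genes whose pair of log2 ratios lay nearest to that of Isg15, out of 2619 genes that exceeded the floor on every array carrying them (distance on the log2 scale, n = 2 experiments), were Gzma at 0.47, Phlda1 at 0.64, Usp18 and H2-Aa at 0.70 each and Ctss at 0.72. Gzma encodes a granule protease, H2-Aa an MHC class II chain and Ctss the protease cathepsin S. Nearest to Usp18 were Ctss at 0.48, H2-Aa at 0.63, Isg15 at 0.70, Cd74, the MHC class II invariant chain, at 0.78 and Irf8 at 0.83. Members found near each other here were chosen on these same ratios.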

How the data were processed

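RNA of sorted double-positive thymocytes was measured on 6 arrays, 3 of each genotype. The deposited values are linear intensities of probe sets. Microarray Analysis Software v4 and v5 made them per the series text, and MAS5 is named for the U74A arrays per the submitters' processing notes. The version behind the Mu11K values is not given in the sources used here, nor is the target of the authors' scaling. Negative intensities made up 17.3% to 29.2% of the Mu11K values of an array and 0% of the U74A values.

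Control probe sets and 21 Mu11K A probe sets without a value were left out. Each array was scaled to a mean of 500, trimmed by 2% at each end, values under 100 were raised to 100, and the result was put on a log2 scale. A ratio of Sox13 transgenic over wild type is a lower bound where the wild type is at this floor. It is an upper bound where the Sox13 transgenic sample is at the floor. Probe sets with 1 symbol in the platform annotation, updated through RefSeq genes of GRCm38.p6, named genes. Within an experiment, a gene's ratio is the mean log2 ratio of those of its probe sets that exceeded the floor in either genotype. The Mu11K A and B arrays count as 1 replicate.

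limma 3.58.1 in R 4.3.3 tested the 2 experiments' log2 ratios against 0, two-sided, with Benjamini-Hochberg adjustment over 3237 genes and a threshold of 0.05, after the fit had been tested on simulated data. The few arrays limit the precision. The members and gene lists were chosen with earlier results of these data known. Named genes were the members, Sox13, the measured receptors, kinases, inhibitors, interferon regulatory factors and ISG15 conjugation genes, up to 6 targets per list and direction with one sign in both experiments, the 5 genes nearest to Isg15 and to Usp18, and the markers. Ifit2, Nmi, Ly6e, Gbp7, Ifi47 and the genes named at the floor fall outside that rule and were named after their values were seen. Alternatives changed the floor, the scaling, the filter on low values and the choice of probe set.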

Additional observations from a re-analysis of the deposited data

Results flagged for a closer look

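Gbp2 stood out for the size of the difference between its experiments, which also pointed in opposite directions. Its log2 ratio of Sox13 transgenic over wild type was -1.26 in experiment 1 and 0.14 in experiment 2, a difference of -1.40 (experiment 1 minus experiment 2), and the difference was not tested. Over 3237 genes, the 90th percentile of the absolute difference between experiments was 1.31, and only 54.3% of the genes had the same sign in both. The probe sets of Gbp2 came from different sequence records in the 2 experiments, and the part of that in the difference was not tested.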

How the results depend on the processing

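Where a value could be formed, the measured members kept the sign of their mean log2 ratio under the floors of 50, 200 and 25 (the last chosen after seeing the data), the 3 other scalings, the 2 other filters and the brightest probe set. No mean could be formed for Irf7 and Irf9 with a floor of 200, nor for Irf9 when both arrays had to exceed the floor. Leaving out an experiment gave log2 ratios of -1.26 to 0.14 for Gbp2, positive in experiment 2 alone. The count of members 2-fold lower in experiment 1, 1 as reported, was 0 with a floor of 200, with median scaling and with quantile and loess normalization. Genes called higher by limma, 5 as reported, numbered 0 with a floor of 50, 21 with median scaling, 12 with quantile normalization, 0 with no filter, 2 when both arrays had to lie above the floor and 1 with the brightest probe set. Genes called lower, 0 as reported, numbered 1 with a floor of 200, 5 with median scaling and 3 with quantile normalization. Other interferon genes called, 0 as reported, numbered 1 with median scaling, which was Lgals3bp. Other interferon genes lower in both experiments, 12 as reported, numbered 6 with a floor of 200, 7 with quantile normalization and 6 above the floor on both arrays. The share of genes higher in experiment 1 was 45.6% as reported, 64.9% with median scaling, 54.8% with quantile and 53.0% with loess normalization. The cause of these shifts was not tested. The limma test is already paired, since each ratio is formed within an experiment, and the labels give no replicate numbers for any other block. Levels near the floor limit Irf7, Irf8 and Irf9.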

Other observations

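Other interferon genes were above the floor in 1 experiment only and entered no test. In experiment 2 alone there were 18, of which 12 were higher and 6 lower in Sox13 transgenic cells, with a median log2 ratio of 0.13 in which values at the floor enter as bounds. Of all 5377 genes of experiment 2, 45.4% were higher. Irf4, Eif2ak2, Trim30a and Ifitm3 exceeded the floor in the Sox13 transgenic sample only, and Ido1 in the wild type only. The highest of the 18 were Ifitm3, which encodes a membrane protein that hinders virus entry, at 196.0 in Sox13 transgenic cells and below the floor in wild-type cells, at least 1.96-fold higher, and the exonuclease gene Isg20, at 294.8 in Sox13 transgenic and 160.2 in wild-type cells. Ifih1, the gene of the RNA sensor MDA5, had 202.0 in Sox13 transgenic and 128.6 in wild-type cells. In experiment 1 alone there were 9, of which 5 were higher and 4 lower, while 45.6% of all 3927 genes of experiment 1 were higher. Nos2 and Rsad2 exceeded the floor in the Sox13 transgenic sample only, and Ifna1 and Ube2l6 in the wild type only. Of the 9, the adhesion gene Icam1 had the highest ratio, at 363.0 in Sox13 transgenic and 174.1 in wild-type cells. These genes were singled out after their values were seen.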
